A study of Mus musculus with 84 samples.

Results

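Granulocyte-monocyte progenitors (GMP) from mice with the MLL-ENL genotype were compared with GMP from control mice at 10 weeks of age. The comparison rests on 8 of the 84 libraries of the series: MLL-ENL libraries 73, 74, 78 and 81, and control libraries 76, 80, 87 and 88, chosen by their labels, with all mouse genes in the table considered. The genotype of the controls is labelled wild type. The cells came from bone marrow, and both groups share the notes No dox and fetal induction. The study followed blood progenitors of newborn (P0) and adult mice with a tetracycline-regulated MLL-ENL transgene, and its title asks how the efficiency of leukemia initiation changes with age. It also holds HPC, labelled as committed hematopoietic progenitors, and pGM, the pre-granulocyte-monocyte progenitors, of the same ages. Further groups are HPC at 6 and 12 months, and a separate 10 week set labelled MLL-ENL (x2) with its own controls. The HPC of 6 and 12 months, MLL-ENL and control alike, are labelled 8 wk dox, and all other libraries No dox. The sources used here do not say what x2 stands for, which promoter or cells drove the transgene, or whether mice were pooled. The labels do not say that libraries of a group came from separate animals, so p-values measure the spread between libraries. For the main gene tests the spread of each gene was estimated over the 47 libraries of P0 and 10 weeks, not over these 8 alone.

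GMP are committed progenitors that give rise to neutrophils and monocytes, and they make the proteins of the primary granules in large amounts. MLL-ENL joins the DNA-binding front part of KMT2A, a histone methyltransferase that keeps developmental genes active, to MLLT1 (ENL), a reader protein of the machinery that releases paused RNA polymerase. MLL fusions are known for holding Hoxa genes, Meis1 and Mecom active, genes that normally fade as stem cells become GMP, and fusion-bearing GMP can turn into leukemia cells in mice.

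In the MLL-ENL GMP of 10 weeks, 3 of 14899 genes tested passed a false discovery rate (FDR) of 0.05 in edgeR's quasi-likelihood test, 0.0201% of all, 2 higher (0.0134%) and 1 lower (0.00671%). Prdm16, a transcriptional regulator with a PR domain that mouse blood stem cells need for their maintenance, rose. Sva, the seminal vesicle antigen gene, rose at a very low level. C1qtnf6, which encodes a secreted protein related to C1q and tumor necrosis factor, fell. No Hoxa gene, nor Meis1 or Mecom, passed the test.

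The starts of the 3 genes are shown because the part of KMT2A that MLL fusions keep includes a CXXC domain, which binds CG pairs without methylation. The windows run from 250 bases before to 50 after each RefSeq gene start, on GRCm38.p6, 5′ to 3′ on the gene's strand, with every CG in capitals. For C1qtnf6 the longest GENCODE transcript starts before this window, at 78531416.
Prdm16, minus strand, chr4:154636824-154637123: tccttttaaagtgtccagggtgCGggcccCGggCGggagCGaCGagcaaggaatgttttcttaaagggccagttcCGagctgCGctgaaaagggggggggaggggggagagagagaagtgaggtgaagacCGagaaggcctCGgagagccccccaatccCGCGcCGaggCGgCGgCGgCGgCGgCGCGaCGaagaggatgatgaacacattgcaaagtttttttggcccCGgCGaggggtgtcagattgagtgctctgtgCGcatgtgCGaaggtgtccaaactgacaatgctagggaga
C1qtnf6, minus strand, chr15:78529602-78529901: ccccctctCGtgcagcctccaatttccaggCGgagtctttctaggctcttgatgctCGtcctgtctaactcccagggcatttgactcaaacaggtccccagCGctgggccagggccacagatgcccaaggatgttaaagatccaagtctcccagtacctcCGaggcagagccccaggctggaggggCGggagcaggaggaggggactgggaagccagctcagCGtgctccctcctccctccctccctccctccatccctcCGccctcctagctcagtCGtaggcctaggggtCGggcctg
Sva, plus strand, chr6:42038144-42038443: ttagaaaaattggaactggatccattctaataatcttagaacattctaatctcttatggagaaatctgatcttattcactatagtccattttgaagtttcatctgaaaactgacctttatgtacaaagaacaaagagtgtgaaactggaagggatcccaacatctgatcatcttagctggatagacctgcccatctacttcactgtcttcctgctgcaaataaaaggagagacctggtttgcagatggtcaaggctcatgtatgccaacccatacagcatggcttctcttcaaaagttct
The Prdm16 window held 24 CG, and 19.98% of the 32851 RefSeq mouse promoter windows of this length held at least as many. The C1qtnf6 window held 10, a number reached by 43.5% of windows, and the Sva window held 0, against a median of 7. CG is the same letters on both strands. These counts describe the windows, and binding there was not measured in these data.

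The libraries held 12.16, 13.58, 7.62 and 15.45 M counts in the MLL-ENL GMP and 14.02 to 15.61 M counts in the control GMP. Levels are CPM, the counts scaled to library size on a common TMM scale, as mean ± SD with n = 4 each, and changes as log2 fold changes of MLL-ENL over control with their SE. Reads on the human transgene were few. MLL-ENL libraries 73, 74, 78 and 81 had 14, 6, 33 and 17 reads on human KMT2A. On human MLLT1 they had 0, 0, 0 and 1, so their transgene levels rested almost wholly on KMT2A. Both genes together came to 1.15, 0.442, 4.33 and 1.17 CPM of mouse counts in these MLL-ENL libraries. In control libraries 76, 80, 87 and 88 the level was 0.211, 0, 0.0693 and 0 CPM. All 4 MLL-ENL libraries stood above the 4 controls, and library 74 stood closest to them, with 6 reads on human KMT2A. The means were 1.77 ± 1.74 and 0.0701 ± 0.0994 CPM, and an exact 2-sided permutation test gave p = 0.029, the smallest value that 4 against 4 libraries can give. Newborn MLL-ENL GMP averaged 5.03 ± 2.38 CPM of the transgene, and MLL-ENL (x2) GMP 6.88 ± 3.90 CPM (n = 3). Endogenous mouse Kmt2a averaged 28.8 ± 5.40 CPM in MLL-ENL and 28.3 ± 18.7 CPM in control GMP, and Mllt1 9.26 ± 3.05 and 12.9 ± 4.61 CPM, with adjusted p = 1 for both in edgeR's test. Control library 76 held 56.17 CPM of Kmt2a, the other controls 17.51 to 21.85 CPM and the MLL-ENL libraries 23.05 to 35.76 CPM. With 1 library left out, the log2 fold change of Kmt2a ran from -0.162 to 0.604.

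The labelled cell type was checked against its markers. The 10 GMP markers, led by the granule genes Mpo and Elane, summed to 88010 to 123700 CPM in MLL-ENL GMP and 95370 to 120000 CPM in control GMP. The same sum averaged 5986 CPM in control HPC and 25000 CPM in control pGM of 10 weeks. Kit and Cd34 of this panel ran the other way. Kit averaged 523 CPM in control GMP, 745 CPM in control HPC and 690 CPM in control pGM, and Cd34 981, 1777 and 1614 CPM. Every other marker of the panel averaged higher in control GMP than in both. Mpo alone, the myeloperoxidase gene, averaged 62270 ± 15270 CPM in MLL-ENL and 65720 ± 6908 CPM in control GMP. Of 5 T and NK cell markers, Cd3e and Ncr1 had 0 reads in all 8 libraries, and the 5 summed to at most 0.973 CPM in MLL-ENL and 0.666 CPM in control GMP. The 6 B cell markers, of which Pax5 had 0 reads, summed to 166 to 224 CPM in MLL-ENL and 159.6 to 231 CPM in control GMP, mostly Cd79b. The 5 markers of stroma and endothelium, of which Cdh5 had 0 reads, summed to 154 to 231 CPM in MLL-ENL and 137 to 221 CPM in control GMP, mostly Pecam1.

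The 2 MLL-ENL libraries labelled 73 in HPC and in pGM of 10 weeks went against their labels, each with marker levels in the range of the other population. The 10 GMP markers summed to 23650 CPM in the HPC library labelled 73, against 3879 to 6398 CPM in the other 3 MLL-ENL HPC libraries. They summed to 5769 CPM in the pGM library labelled 73, against 21780 to 32090 CPM in the other 3 of MLL-ENL pGM. Mecom, a stem cell transcription factor gene, stood at 22.02 CPM in the HPC library labelled 73 and at 56.1 to 87.3 CPM in the other 3, and at 64.1 CPM in the pGM library labelled 73 and 20.6 to 27.3 CPM in the other 3. Whether these 2 libraries were exchanged was not tested, and results in HPC and pGM are given with and without both. The GMP calls of Prdm16, Sva and C1qtnf6 held without them. MLL-ENL HPC averaged 4.62 ± 1.92 CPM of the transgene with the library labelled 73 and 4.93 ± 2.22 CPM without it (n = 3), and MLL-ENL pGM 3.004 ± 2.23 and 1.90 ± 0.429 CPM.

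Eosinophil genes separated libraries within both groups. The 3 markers of this lineage, the granule protein genes Epx, Prg2 and Prg3, are known to be switched on in committed eosinophil precursors. Their sum was 345, 1524, 30190 and 8746 CPM in MLL-ENL libraries 73, 74, 78 and 81, and 372, 16750, 834 and 3021 CPM in control libraries 76, 80, 87 and 88. Libraries 78 and 80 were highest in their groups, and the groups overlapped. The 5 mast cell and basophil markers summed to 819, 664, 5124 and 1728 CPM in the MLL-ENL libraries and 846, 3482, 600.3 and 802.5 CPM in the controls. Their sums were also highest in libraries 78 and 80, but the order of the low libraries was not that of the eosinophil sums. In bulk RNA, more cells of a type and more RNA per cell cannot be told apart. Of the sex-linked genes, Xist stood above 100 CPM in MLL-ENL libraries 78 and 81 and control library 80, at 252.5, 143 and 140 CPM, and at 19.9 CPM in control library 88. It lay at 0.494 and 1.03 CPM in MLL-ENL libraries 73 and 74, and at 0.633 and 0.693 CPM in control libraries 76 and 87. The Y-linked gene Ddx3y ran the other way, at 42.9 and 60.3 CPM in libraries 73 and 74 against 57.8 and 56.5 CPM in libraries 76 and 87, and below 1 CPM in the other 4. Without libraries 78 and 80, and with a term for sex (the 4 libraries with more Xist than Ddx3y against the rest), the calls of Prdm16, Sva and C1qtnf6 held.

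**Figure D1:**
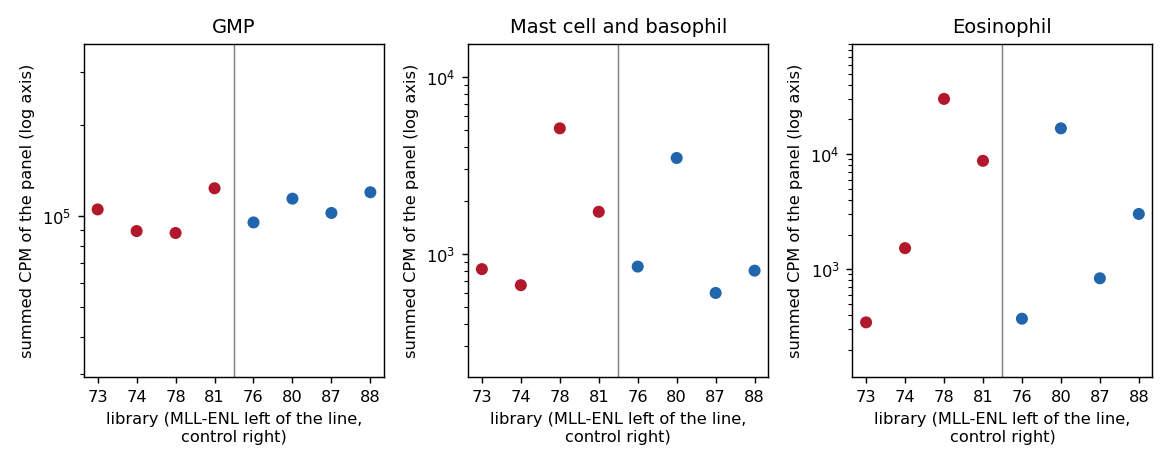
Summed CPM (log axis) of GMP, mast cell and basophil, and eosinophil markers in each of the 8 libraries, MLL-ENL in red left of the line and control in blue right of it. The GMP sums lie between 88010 and 123700 CPM, whereas the eosinophil sums run from 345 to 30190 CPM with libraries 78 and 80 highest in their groups.

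Prdm16 lies at chr4:154316125-154636873 on the minus strand (GRCm38), and its protein is a relative of Mecom (Evi1). Its level was 26.2, 21.8, 9.68 and 19.98 CPM in MLL-ENL libraries 73, 74, 78 and 81, against 3.87, 5.52, 4.88 and 4.95 CPM in control libraries 76, 80, 87 and 88. Every MLL-ENL library lay above every control, with library 78 the lowest of its group. The means were 19.4 ± 7 CPM in MLL-ENL and 4.81 ± 0.686 CPM in control GMP, a log2 fold change of 2.02 ± 0.26 (95% interval 1.49 to 2.56, adjusted p = 1.39e-05 in edgeR's test). The call rests on 828 reads in MLL-ENL GMP and 229 in control GMP. Of the 3 annotated genes that lie inside Prdm16 on the other strand, Gm13133 had 0 and 6 reads in MLL-ENL and control GMP, and Gm13134 and B230104I21Rik had none. In a fit of the 8 libraries alone the adjusted p of Prdm16 was 0.0671, the highest of its 17 alternative fits, which otherwise ran down to 8.69e-11.

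C1qtnf6 lies at chr15:78523346-78531416 on the minus strand, with no annotated gene over it. It stood at 3.86, 5.40, 1.84 and 4.77 CPM in MLL-ENL libraries 73, 74, 78 and 81, and at 30.2, 26.7, 31.2 and 29.8 CPM in control libraries 76, 80, 87 and 88. The groups were far apart and the controls close together. The means were 3.97 ± 1.55 CPM in MLL-ENL and 29.5 ± 1.96 CPM in control GMP, with 172 and 1419 reads. The gene fell by 2.86 ± 0.28 on the log2 scale (95% interval -3.42 to -2.30, adjusted p = 8.91e-09 in edgeR's test), and it was called in every alternative fit.

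Sva lies at chr6:42038394-42042851 on the plus strand and encodes a secreted protein first described in seminal vesicle. Its mean level is below the minimum used for naming genes, so it was chosen after its values were seen. MLL-ENL libraries 73, 74, 78 and 81 had 13, 14, 18 and 16 reads, and control libraries 76, 80, 87 and 88 had 1, 2, 0 and 0. All MLL-ENL libraries lay above all controls, at levels of 1.24 to 2.76 CPM in MLL-ENL and 0 to 0.190 CPM in control GMP. The pooled 61 reads in 48.82 M counts against 3 in 58.29 M counts gave a ratio of 24.3 (exact 95% interval 7.93 to 121), which covers counting error only. In edgeR's test the adjusted p was 8.91e-05, and in the fit of the 8 libraries alone 0.208, the highest of its 17 alternative fits (lowest 3.13e-08).

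**Figure D2:**
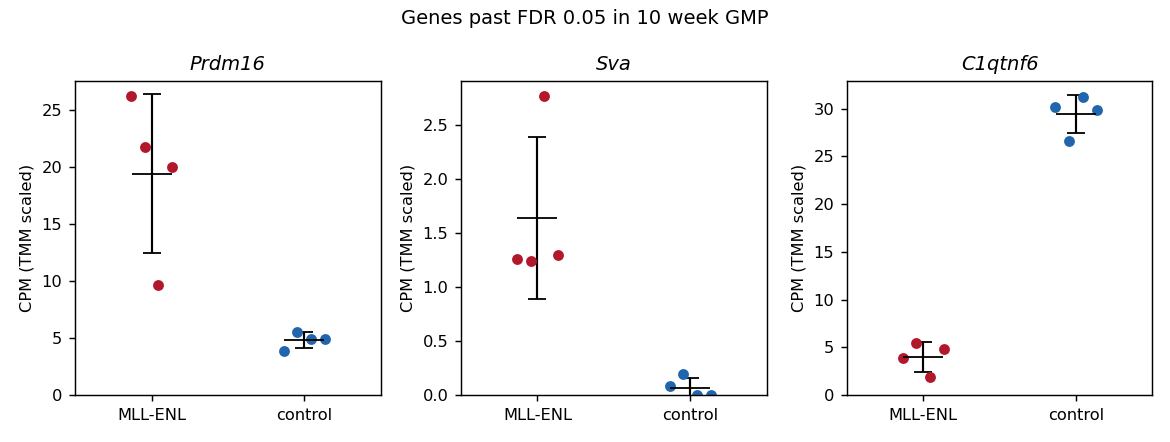
CPM of the 3 genes past FDR 0.05 in MLL-ENL (red) and control (blue) 10 week GMP, 1 point per library, with the mean and SD. In all 3 panels the 4 MLL-ENL libraries lie apart from the 4 controls, above them for Prdm16 and Sva and below them for C1qtnf6.

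Beyond these genes, 218 genes were higher and 231 lower in MLL-ENL GMP at an unadjusted p under 0.05, 1.46% and 1.55% of those tested. The groups did not overlap for 71 higher genes (0.477%) and 93 lower genes (0.624%). The median log2 fold change over all genes was -0.01, with 6905 genes above 0 and 7679 below. The precision depended on the level: the median SE of a log2 fold change was 0.19 for the 5037 genes at a mean of at least 5 log2 CPM, and 0.73 for the 4564 genes below 1. Of the genes at 5 or more, 4856 (96.4%) had a 95% interval that stayed within 1 log2 unit of 0 on either side, against 62% of all genes. A change smaller than this was not detectable for many of the weakly expressed genes, and 313 tested genes had 0 reads in all 8 libraries.

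**Figure D3:**
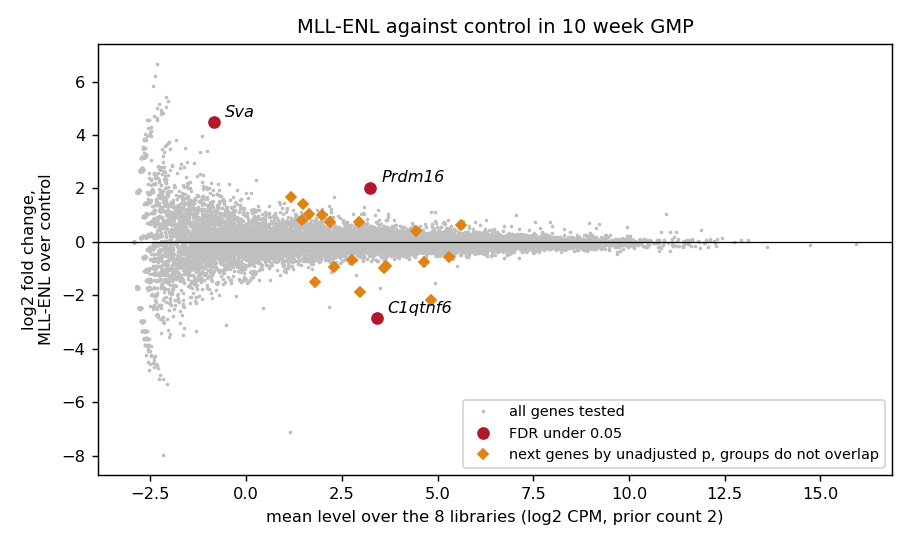
Log2 fold change of MLL-ENL over control against the mean log2 CPM over the 8 libraries (prior count 2), 1 point per gene tested. The 3 genes past FDR 0.05 are red, the 18 next genes orange diamonds, and the cloud of all genes widens below about 5 log2 CPM, where the median SE is larger.

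The genes with the next smallest p-values whose groups did not overlap are given as values, since none passed the FDR in edgeR's test. Among those higher in MLL-ENL GMP, Commd10, a COMM domain gene, averaged 61.4 ± 8.67 CPM in MLL-ENL and 39.3 ± 4.54 CPM in control GMP (log2 fold change 0.65 ± 0.17). Ehd3, whose protein acts in endocytic recycling, averaged 4.05 ± 1.49 CPM in MLL-ENL and 1.26 ± 0.712 CPM in control GMP. Cyp27a1, the sterol 27-hydroxylase, averaged 4.64 ± 2.27 CPM in MLL-ENL and 1.71 ± 0.454 CPM in control GMP. Ulbp1, which encodes a ligand of the NK cell receptor NKG2D, averaged 10.06 ± 1.48 CPM in MLL-ENL and 6.00 ± 1.53 CPM in control GMP. Pmaip1 (Noxa), a BH3-only gene that p53 can switch on, averaged 5.47 ± 1.04 CPM in MLL-ENL and 2.76 ± 0.878 CPM in control GMP. Ckm, the muscle creatine kinase, averaged 4.41 ± 1.07 CPM in MLL-ENL and 2.14 ± 0.845 CPM in control GMP. The glycosyltransferase gene B3gnt7, Phtf2 and Arhgap12 had log2 fold changes of 0.76, 0.42 and 0.81.

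Among those lower in MLL-ENL GMP, Cd14, the co-receptor for bacterial lipopolysaccharide on monocytes, stood at 11.8, 8.67, 16.3 and 17.2 CPM in MLL-ENL libraries 73, 74, 78 and 81, against 50.3, 64.5, 77.2 and 53.7 CPM in control libraries 76, 80, 87 and 88. The groups were well apart. Its log2 fold change was -2.18 ± 0.64 with an unadjusted p of 0.00157 and an adjusted p of 1 in the fit of 47 libraries, but it passed the FDR in the fit of the 24 libraries of 10 weeks alone (adjusted p = 0.00139) and in that of the 8 libraries (0.0109), the only 2 of its 17 alternative fits that called it. Sdc2, a heparan sulfate proteoglycan of the cell surface, stood at 0.964, 2.21, 10.3 and 6.23 CPM in MLL-ENL libraries 73, 74, 78 and 81, against 11.8, 26.1, 11.6 and 22.3 CPM in control libraries 76, 80, 87 and 88. Library 78 came close to the lowest controls, and the log2 fold change was -1.88 ± 0.44 (adjusted p = 0.441 in edgeR's test). Over 17 alternative fits the adjusted p of Sdc2 ran from 0.00416, with a term for sex, to 1, and it passed without library 78 (0.0142) and by DESeq2 (0.0222). Gng11, a G protein gamma subunit, averaged 2.04 ± 0.752 CPM in MLL-ENL and 5.68 ± 0.887 CPM in control GMP, and Gpc3, a glypican, 8.73 ± 1.495 and 17.2 ± 4.89 CPM. The keratin gene Krt18 averaged 32.4 ± 5.73 CPM in MLL-ENL and 48.8 ± 9.72 CPM in control GMP. The membrane protein gene Tmem98, the imprinted gene Peg12, the co-chaperone gene Dnajb14 and the Mediator subunit gene Med26 had log2 fold changes of -0.91, -0.75, -0.95 and -0.68.

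Of 25 known target genes of MLL fusions, 22 were tested, and 0 passed the FDR in edgeR's test, with 3 higher and 0 lower at an unadjusted p under 0.05. Over all genes tested 1.46% were higher and 1.55% lower at this level. Across the 29 lists used here DESeq2 called Prdm16 alone. The targets' median log2 fold change was 0.25, with 14 above 0 and 8 below, against -0.01 over all genes. With each target centred on its mean log2 CPM, the library medians overlapped, at -0.16 to 0.408 in MLL-ENL and -0.461 to 0.215 in control GMP. Hoxa9, a homeobox gene that sustains MLL leukemias, stood at 16.8, 15.4, 16.1 and 13.8 CPM in MLL-ENL libraries 73, 74, 78 and 81, against 13.7, 12.1, 10.2 and 9.97 CPM in control libraries 76, 80, 87 and 88. The groups did not overlap, but the lowest MLL-ENL library lay just above the highest control. Its log2 fold change was 0.44 ± 0.23 (95% interval -0.02 to 0.90, unadjusted p = 0.0593, adjusted p = 1 in edgeR's test). Hoxa10, its neighbour in the cluster, had 67 reads in MLL-ENL and 34 in control GMP (log2 fold change 1.21 ± 0.46, unadjusted p = 0.012 in edgeR's test). Hoxa7 averaged 48.2 ± 13.3 CPM in MLL-ENL and 39.5 ± 8.33 CPM in control GMP. Meis1, the DNA-binding partner of Hoxa9, averaged 101 ± 23.6 CPM in MLL-ENL and 87.7 ± 29.2 CPM in control GMP, and the libraries overlapped.

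Mecom stood at 5.21, 6.28, 7.53 and 4.21 CPM in MLL-ENL libraries 73, 74, 78 and 81, against 4.98, 2.57, 1.90 and 1.57 CPM in control libraries 76, 80, 87 and 88. Control library 76 lay within the MLL-ENL range. The log2 fold change was 1.06 ± 0.39 (unadjusted p = 0.00974, adjusted p = 1 in edgeR's test). Skida1 had 5 reads in MLL-ENL and 1 in control GMP, too few for a comparison. The 2 tested Hoxb genes, Hoxb4 with 1.37 ± 0.437 CPM in MLL-ENL and 2.04 ± 0.261 CPM in control GMP and Hoxb5 with 4 and 7 reads, were both below 0 (median log2 fold change -0.52).

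Of 22 genes of stem and multipotent progenitors, Prdm16 alone was called, with 2 higher and 3 lower at an unadjusted p under 0.05 in edgeR's test, while 16 were below 0 and the median was -0.27. The median was -0.03 without control library 76. Over all 29 lists, 15 medians lay below 0 without 1 library and above 0 without another. Hlf, a transcription factor gene of stem cells, averaged 11.9 ± 4.55 CPM in MLL-ENL and 17.4 ± 5.36 CPM in control GMP, against 234 CPM in control HPC. Fgd5, a marker gene of mouse blood stem cells, had its MLL-ENL libraries below 0.1 CPM and its controls at 0.190 to 0.707 CPM. These levels stand for few reads, and the gene was not called and was named after its values were seen. Of 12 antigens used to sort blood progenitors 6 were above and 6 below 0, with a median of 0.01; Eng, the endoglin gene, had a log2 fold change of -0.57 ± 0.33 and Ptprc, which encodes CD45, one of 0.19 ± 0.15.

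Among the genes of the GMP program itself, 0 of 16 primary granule genes were called (7 above and 9 below 0, median -0.07), with 1 lower at an unadjusted p under 0.05 in edgeR's test. Prtn3, the proteinase 3 gene, averaged 4811 ± 1090 CPM in MLL-ENL and 5443 ± 1347 CPM in control GMP, and Fcnb, a ficolin gene, 7.96 ± 2.43 and 26.0 ± 29.7 CPM. The 19 genes of secondary granules and mature neutrophils had a median of -0.21 and 0 calls, with 1 lower at an unadjusted p under 0.05, and the median was 0.35 without control library 88. Within them, S100a9 and Camp, which encode antimicrobial proteins of neutrophils, stood highest in control library 88, at 64.3 and 23.2 CPM, where the 7 neutrophil markers also summed to 451 CPM against 32.6 to 119 CPM in the other controls and 37.3 to 128.5 CPM in the MLL-ENL libraries. The log2 fold change of S100a9 was -2.44 with library 88 and -0.26 without it, and that of Camp -2.48 with it and 0.99 without it. Of 21 monocyte genes 4 were above and 17 below 0 (median -0.26), with 0 calls and 2 lower at an unadjusted p under 0.05. Fcgr1, an Fc receptor gene, had 10 reads in MLL-ENL and 41 in control GMP, 27 of them in library 88. The 6 monocyte markers summed to 1482 to 2471 CPM in MLL-ENL and 1665 to 3321 CPM in control GMP.

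None of the 26 myeloid transcription factor genes was called, with 20 below 0 and a median of -0.13. Irf5, which acts in macrophage activation, averaged 18.4 ± 7.64 CPM in MLL-ENL and 25.2 ± 10.3 CPM in control GMP, and Klf4, a factor of monocyte differentiation, 0.514 ± 0.463 and 1.18 ± 0.834 CPM. The 27 cytokine and growth factor receptor genes had a median of -0.03, and Csf2ra, the receptor chain for GM-CSF, a log2 fold change of -0.31. The 20 dendritic cell genes had a median of -0.23; Itgae, the CD103 integrin gene, averaged 1.14 ± 0.986 CPM in MLL-ENL and 0.376 ± 0.355 CPM in control GMP, and Id2, a factor of dendritic cell development, 11.6 ± 4.92 and 15.04 ± 2.59 CPM. The 10 MHC class II genes had a median of -0.13; H2-Ob, a subunit of the peptide-loading regulator H2-O, averaged 39.9 ± 6.10 CPM in MLL-ENL and 27.5 ± 13.6 CPM in control GMP, and the class II transactivator gene Ciita had 2 and 9 reads. In the 19 macrophage genes (median -0.11) Vsig4, a complement receptor gene, had 0 reads in MLL-ENL GMP and 8 in control GMP, all in library 76, and Cd5l, a secreted scavenger protein gene, had a log2 fold change of -1.48 ± 1.17. No gene of these lists was called in edgeR's test, and 1, Vsig4, had an unadjusted p under 0.05.

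The eosinophil list had the highest median log2 fold change of the 29 lists, 0.75, with all 10 genes above 0 and 0 calls. The median was -0.57 without MLL-ENL library 78 and 2.65 without control library 80, so its sign rested on single libraries. Prg2, the major basic protein gene, stood at 234, 1191, 26060 and 6698 CPM in MLL-ENL libraries 73, 74, 78 and 81, and at 285, 13700, 662 and 2215 CPM in control libraries 76, 80, 87 and 88. The spread within each group was wider than the difference between them. Il5ra, the receptor for interleukin 5, averaged 4.29 ± 6.14 CPM in MLL-ENL and 1.67 ± 2.82 CPM in control GMP, and the lipoxygenase gene Alox15 23.6 ± 35.6 and 9.94 ± 13.5 CPM. Of 19 mast cell and basophil genes 13 were above and 4 below 0 (median 0.19, and -0.12 without MLL-ENL library 78), with 0 calls and 1 higher at an unadjusted p under 0.05. Cd200r3, a receptor gene of these cells, averaged 12.7 ± 14.2 CPM in MLL-ENL and 3.96 ± 3.71 CPM in control GMP, and the steroid side chain enzyme gene Cyp11a1 60.1 ± 43.3 and 42.9 ± 31.2 CPM.

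Other lineages also gave 0 calls in edgeR's test, with 1 megakaryocyte gene (Treml1) and 1 T and NK cell gene (Gata3) lower at an unadjusted p under 0.05. The 22 erythroid genes had a median of 0.15, with Add2, a gene of the red cell skeleton, at 0 reads in MLL-ENL GMP and at 12 reads in control GMP, all of them in control library 76. Erythroid markers summed to 14.2 to 28.4 CPM in MLL-ENL and 4.16 to 45.3 CPM in control GMP. The 18 megakaryocyte genes had a median of -0.17, and Treml1, a platelet receptor gene, had 0 reads in MLL-ENL GMP and 4, 1, 9 and 1 in control libraries 76, 80, 87 and 88; a count of 0 allows up to 3 reads. Thbs1, the thrombospondin gene, had its highest level in control library 80, at 18.0 CPM. The 20 lymphoid priming genes had a median of -0.03; Dntt, the terminal transferase gene, averaged 3.70 ± 1.52 CPM in MLL-ENL and 6.26 ± 3.84 CPM in control GMP, and the recombinase gene Rag2 8.15 ± 0.548 and 5.31 ± 0.845 CPM without overlap. The 15 T and NK cell genes had a median of 0; Gata3, a factor of T cells that early progenitors also use, averaged 0.560 ± 0.371 CPM in MLL-ENL and 1.68 ± 0.571 CPM in control GMP without overlap (unadjusted p = 0.00142 in edgeR's test), and the kinase gene Lck 12.2 ± 1.55 and 7.99 ± 2.89 CPM.

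Growth and stress programs gave 0 calls as well, and at an unadjusted p under 0.05 held Pmaip1 of the p53 genes as higher and Traf1 of the NF-kB genes as lower. The medians were -0.08 for 22 mitosis genes, -0.05 for 24 DNA replication genes, -0.09 for 22 ribosome biogenesis genes, 0.001 for 24 oxidative phosphorylation genes and -0.16 for 22 genes of cholesterol and fatty acid synthesis. MLL-ENL library 78, the shallowest of the 8, was low in several of them: Mcm3, a subunit of the replicative helicase, stood at 1394, 1185, 621 and 1023 CPM in MLL-ENL libraries 73, 74, 78 and 81, against 1258, 849, 1354 and 1287 CPM in control libraries 76, 80, 87 and 88. Nolc1, a nucleolar gene, averaged 307 ± 114 CPM in MLL-ENL and 366 ± 107 CPM in control GMP. Log2 fold changes were -0.38 ± 0.25 for the cyclin gene Ccna2, -0.49 ± 0.34 for the mitotic kinase gene Plk1, -0.40 ± 0.26 for the licensing factor gene Cdt1 and -0.16 ± 0.17 for the nucleolar gene Pes1. They were -0.17 ± 0.17 for Uqcrfs1 and -0.15 ± 0.17 for Ndufv1 of the respiratory chain, and -0.25 for both sterol synthesis genes Sc5d and Nsdhl.

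Of 19 p53 response genes 14 were above 0, with a median of 0.04; Mdm2, the p53 ubiquitin ligase gene, averaged 28.5 ± 4.60 CPM in MLL-ENL and 23.1 ± 5.55 CPM in control GMP. The 20 immediate early genes had a median of 0.26, with Jun at 6.39 ± 5.70 CPM in MLL-ENL and 2.75 ± 1.39 CPM in control GMP and Nr4a1, a nuclear receptor gene, at 0.653 ± 0.354 and 1.202 ± 0.738 CPM. The 16 inflammatory NF-kB genes had a median of 0.02; Traf1, a signaling adaptor gene, had 10 reads in MLL-ENL GMP, all in library 81, and 50 in control GMP, and Nfkb2 averaged 2.97 ± 0.641 and 4.32 ± 1.18 CPM. Of 25 type I interferon genes 20 were below 0 (median -0.21), all at low levels for Mx1 with 8 and 25 reads and Ifit3 with 0.196 ± 0.233 and 0.634 ± 0.792 CPM. The 16 fetal and neonatal genes had a median of 0, with Dlk1 at 0 and 2 reads and Afp at 16.2 ± 3.17 and 12.1 ± 5.53 CPM. The 10 stroma and endothelium genes had a median of 0.04, with Sparc, a matrix protein gene, at 0.762 ± 0.833 and 0.247 ± 0.0798 CPM and Bgn, a proteoglycan gene, at 1.02 ± 0.865 and 1.77 ± 1.61 CPM.

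The MLL-ENL (x2) GMP, with controls of their own, gave 59 calls of 12580 genes (0.469%), 24 higher (0.191%) and 35 lower (0.278%). These libraries are separate from those of the 10 week GMP described above. Of the 59 genes, 51 had the same direction in the MLL-ENL GMP, against 52.3% of the 12522 genes tested in both, and 22 also had an unadjusted p under 0.05 there. Prdm16, Sva and C1qtnf6 were called in both, which is 3 of 59 and 3 of 3. The median log2 fold change of the 24 higher genes was 0.52 in MLL-ENL GMP and 2.55 in MLL-ENL (x2) GMP, and that of the 35 lower genes -0.54 and -1.97. A list chosen by its calls in the x2 set has large values there by that choice, so the smaller values in MLL-ENL GMP are a description.

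Of the 18 genes named above as next after the called ones, 14 had the same direction in MLL-ENL (x2) GMP and 7 were called there in that direction (38.9%, against 0.407% of all genes tested in both). The wider set at an unadjusted p under 0.05 in edgeR's test, called genes included, agreed less often. Of its 306 genes tested in both, 175 had the same direction (57.2%, against 52.3% of all genes). These were 92 of 139 higher genes (66.2%) and 83 of 167 lower genes (49.7%). Ehd3 and Ckm rose in MLL-ENL (x2) GMP, by 3.93 ± 0.54 and 2.55 ± 0.42 on the log2 scale, to 5.10 ± 1.69 and 6.44 ± 2.70 CPM against 0.331 ± 0.222 and 1.09 ± 0.616 CPM in their controls (n = 3 and 4). Cd14 fell there to 16.03 ± 2.05 CPM, against 51.5 ± 11.7 CPM in the controls, with an adjusted p of 0.0029 in edgeR's test. Gng11, Tmem98, Krt18 and Gpc3 were the other 4 that fell, with log2 fold changes of -1.58, -2.15, -1.04 and -1.69. Dnajb14 and Med26 had log2 fold changes of -0.03 and 0.35 there, and B3gnt7, Phtf2 and Arhgap12 were below 0.

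In newborn MLL-ENL GMP 17 of 14899 genes were called (0.114%), 12 higher (0.0805%) and 5 lower (0.0336%). Newborn MLL-ENL and control libraries share replicate numbers, and the newborn effect was not fitted with these as a block. Of the 17 genes, 16 had the same direction in 10 week GMP, against 56.1% of all genes, and 5 an unadjusted p under 0.05. C1qtnf6 and Sva were called at both ages, 2 of 17 and 2 of 3. Hnf4a, a nuclear receptor gene best known from liver, averaged 10.4 ± 4.89 CPM in MLL-ENL and 5.10 ± 2.06 CPM in control GMP at 10 weeks (log2 fold change 1.04 ± 0.32, not called), and it rose to 61.1 ± 7.17 CPM in newborn MLL-ENL GMP, against 15.3 ± 3.71 CPM in newborn controls. Maged1, a MAGE family gene, averaged 19.5 ± 6.13 CPM in MLL-ENL and 33.3 ± 6.12 CPM in control GMP at 10 weeks, and it fell both in newborn and in MLL-ENL (x2) GMP. The carboxypeptidase gene Cpvl averaged 0.716 ± 0.390 CPM in MLL-ENL and 0.221 ± 0.382 CPM in control GMP at 10 weeks, against 31.3 ± 15.9 and 0.539 ± 0.319 CPM in newborns. Ednra, an endothelin receptor gene, had a log2 fold change of 1.41 ± 0.59 at 10 weeks and 3.53 ± 0.50 in MLL-ENL (x2) GMP. Of the 18 next genes, 12 had the same direction in newborn GMP (66.7%, against 56.1% of all genes). None was called there in edgeR's test, and 2 of the 12 had an unadjusted p under 0.05.

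**Figure D4:**
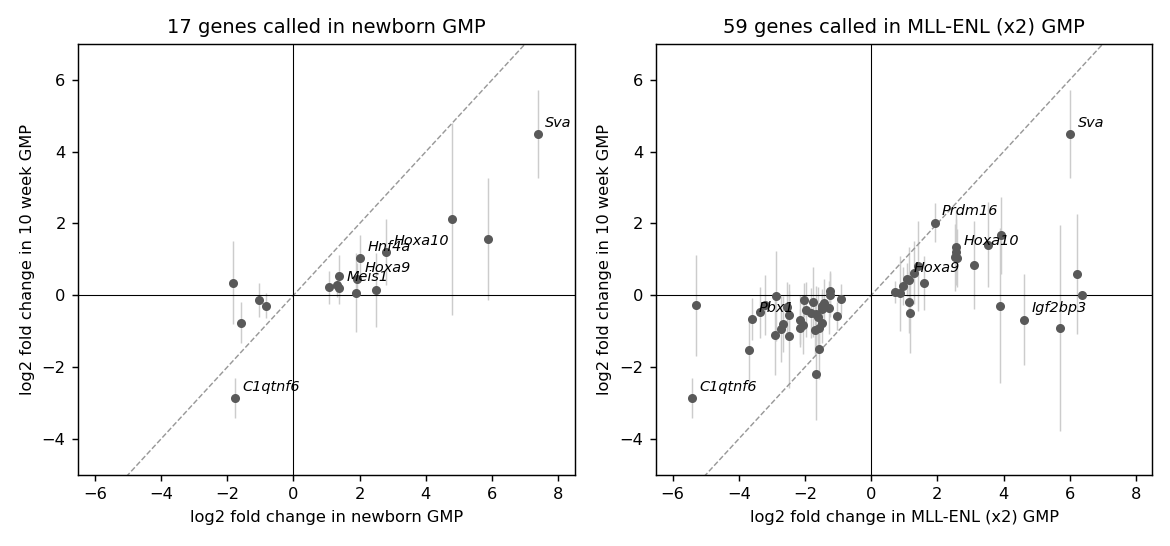
Log2 fold changes in 10 week GMP (with 95% intervals) against those in newborn GMP for its 17 called genes (left) and in MLL-ENL (x2) GMP for its 59 called genes (right), with a dashed line of equality. Most points keep their sign, 16 of 17 and 51 of 59, and lie nearer to 0 in 10 week GMP, whereas Prdm16 lies close to equality in the right panel.

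The difference between the effects at the 2 ages was tested as a contrast of 4 groups. It passed the FDR for 1 gene, Prdm16 (0.00671% of 14899), and 454 genes had an unadjusted p under 0.05. The log2 fold change of Prdm16 was 2.02 in 10 week GMP and -0.51 in newborn GMP, a difference of 2.53 ± 0.36 (adjusted p = 0.000299 in edgeR's test). With the replicate numbers of the newborn libraries as a block, in a fit of the 16 GMP libraries, the difference was 2.55 ± 0.36 with an adjusted p of 0.0417. Newborn GMP held 8.86 ± 2.01 CPM in MLL-ENL and 12.6 ± 1.81 CPM in control libraries. The control libraries of the 2 ages did not overlap, with the lower levels at 10 weeks, whereas MLL-ENL library 78 of 10 weeks, at 9.68 CPM, lay within the newborn MLL-ENL range of 7.095 to 11.7 CPM. The difference for Hoxa9 was -1.48 ± 0.32, with 0.44 at 10 weeks and 1.92 in newborns, and its adjusted p was 0.305 in edgeR's test. DESeq2 called 7 genes for this contrast, Hoxa9 and Hoxa7 among them. For Hoxa7 the difference was -1.04 ± 0.24 and for Meis1 -1.18, with adjusted p = 0.576 and 0.788 in edgeR's test.

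Across the 10 week populations Prdm16 averaged 25.7 ± 3.67 CPM in MLL-ENL and 16.3 ± 4.38 CPM in control HPC, and 22.6 ± 7.44 and 9.05 ± 2.86 CPM in pGM. Control levels thus ran lower toward GMP, with HPC and GMP libraries apart, while the MLL-ENL groups overlapped in all 3 populations. The effects were 0.67 ± 0.25 in HPC, 1.303 ± 0.251 in pGM (adjusted p = 0.0115 in edgeR's test) and 2.02 in GMP. The difference of GMP from HPC was 1.36 ± 0.36 and that from pGM 0.72 ± 0.36, both with adjusted p = 1 in edgeR's test. Without the libraries labelled 73 MLL-ENL HPC averaged 24.1 ± 2.22 CPM and MLL-ENL pGM 20.6 ± 7.70 CPM (n = 3 each). The effects were then 0.58 ± 0.26 in HPC and 1.17 ± 0.27 in pGM, where the call was lost (adjusted p = 0.126 in edgeR's test), and the differences 1.44 and 0.85. MLL-ENL (x2) GMP held 26.3 ± 4.66 CPM and their controls 6.95 ± 2.47 CPM of Prdm16. In HPC at 6 and 12 months, after adult induction, it averaged 16.4 and 13.65 CPM in MLL-ENL and 17.5 and 16.6 CPM in control libraries. Both genotypes of these HPC are labelled with dox, so age, dox and time of induction cannot be told apart there.

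At 10 weeks 26 genes were called in HPC (0.175%) and 14 in pGM (0.094%), with C1qtnf6 among them in both. Without the libraries labelled 73 there were 26 in HPC, 19 of them shared, and 7 in pGM, 5 of them shared, and C1qtnf6 was called in both again. It was lower in MLL-ENL than in control libraries of all 3 populations, with log2 fold changes of -2.15 in HPC, -2.88 in pGM and -2.86 in GMP (-2.02, -2.85 and -2.86 without the libraries labelled 73). In newborn GMP it averaged 4.14 ± 1.06 CPM in MLL-ENL and 14.15 ± 1.83 CPM in control libraries, and in MLL-ENL (x2) GMP 0.573 ± 0.296 and 25.2 ± 2.89 CPM. In the dox-labelled HPC at 6 and 12 months it averaged 27.15 and 29.6 CPM in MLL-ENL and 27.6 and 33.6 CPM in control libraries. Sva averaged 4.90 ± 1.01 CPM in newborn MLL-ENL GMP and 0.0206 ± 0.0412 CPM in newborn control GMP, and at 6 and 12 months 1.36 ± 0.150 and 1.83 ± 0.400 CPM in MLL-ENL HPC and 0.0345 and 0 CPM in control HPC. MLL-ENL libraries of every age and population had Sva reads.

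**Figure D5:**
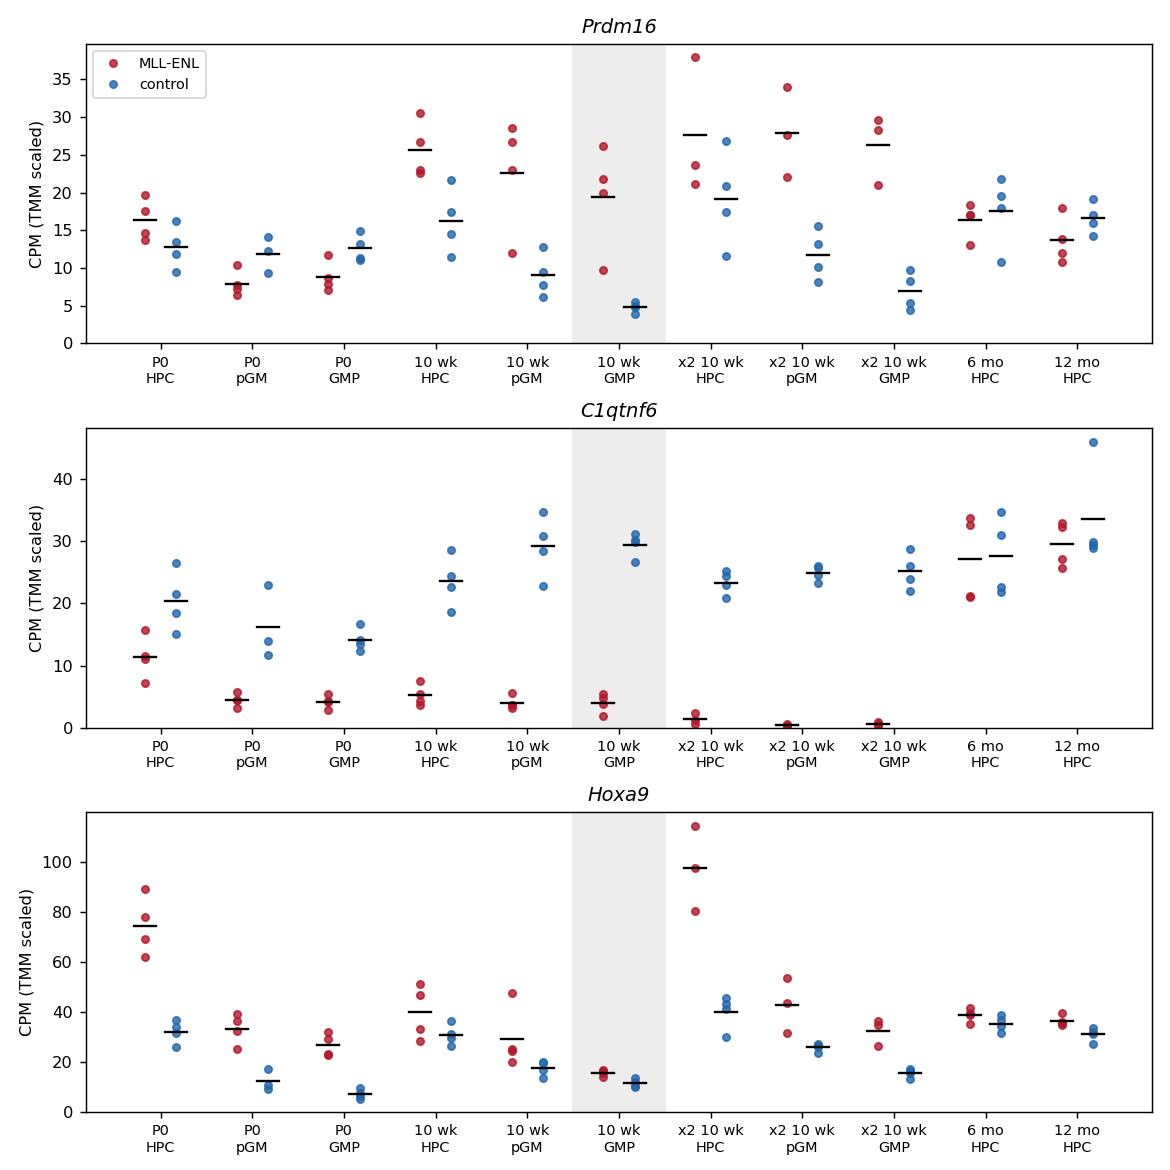
CPM of Prdm16, C1qtnf6 and Hoxa9 in each library (points) and group means (lines) of MLL-ENL (red) and control (blue) mice, with 10 week GMP shaded. In the shaded column Prdm16 stands at 19.4 and 4.81 CPM, C1qtnf6 at 3.97 and 29.5 CPM and Hoxa9 at 15.5 and 11.5 CPM in MLL-ENL and control GMP, and the Hoxa9 groups lie much further apart in newborn GMP, at 26.6 and 7.03 CPM.

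Tests of the other differences gave few calls. Between the effects in GMP and HPC at 10 weeks 1 gene passed (0.00671%; 384 genes at an unadjusted p under 0.05), Plekhh2, with a difference of -17.7 (adjusted p = 0.0493 in edgeR's test). Its values rest on single libraries: in GMP they were 2.70, 0, 0.461 and 0.728 CPM in MLL-ENL libraries 73, 74, 78 and 81 and 448, 0.0952, 0.166 and 103 CPM in control libraries 76, 80, 87 and 88, and in HPC 1617 CPM in the library labelled 73, which went against its label, and under 1 CPM in the other 7. Without the libraries labelled 73 in HPC and pGM the difference was -7.72 ± 3.38 (adjusted p = 1 in edgeR's test). Tifab, which encodes an inhibitor of TRAF6 signaling, came next: its level in GMP was 281 to 731 CPM in MLL-ENL and 377 to 644 CPM in control libraries, and in HPC 102 to 315 CPM in MLL-ENL and 18.6 to 32.9 CPM in control libraries (difference -2.71 ± 0.53, adjusted p = 0.0582 in edgeR's test). The 315 CPM belonged to the HPC library labelled 73, and without the libraries labelled 73 the MLL-ENL HPC stood at 102 to 127 CPM and the difference was -2.17 ± 0.43 (adjusted p = 0.167). Between GMP and pGM, 0 genes passed in edgeR's test, with 297 at an unadjusted p under 0.05 and 9 called by DESeq2.

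Between MLL-ENL (x2) and MLL-ENL GMP, each against its own controls, 1 gene passed (0.00795% of 12580; 412 genes at an unadjusted p under 0.05). This was Igf2bp3, an RNA-binding protein gene of fetal tissues, with a difference of 5.31 ± 0.69 (adjusted p = 0.00532 in edgeR's test). It stood at 13.03, 5.39 and 6.32 CPM in the 3 MLL-ENL (x2) libraries against 0.253 to 0.419 CPM in their controls, and at 0.0964 to 0.461 CPM in MLL-ENL and 0.316 to 0.762 CPM in control GMP. The 10 week MLL-ENL GMP thus lay within or below the range of their own controls. For C1qtnf6 the difference was -2.55 ± 0.44 (adjusted p = 0.102 in edgeR's test), with log2 fold changes of -5.41 in MLL-ENL (x2) and -2.86 in MLL-ENL GMP.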

How the data were processed

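The 8 libraries of 10 week GMP are part of a table of 84 RNA-seq libraries. Per the labels' protocols the kits were Qiagen RNeasy micro plus for RNA and Clontech SMARTer for the libraries. The authors deposited raw read counts per gene. The submitters' processing notes name STAR 3.0.4, Subread and featureCounts 1.4.5, and the sources used here state no genome build, annotation or strand setting. There were 41388 mouse genes and 3 transgene lines: human KMT2A, MLLT1 and their sum. GENCODE vM21 (GRCm38) gave symbols and positions for 40340 identifiers and none for 1048.

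The counts were fitted with edgeR 4.0.16 in R 4.3.3 (quasi-likelihood test, TMM scaling, filterByExpr, Benjamini-Hochberg FDR 0.05), with 1 mean for each of the 12 groups of the 47 libraries at P0 and 10 weeks, which left 14899 genes (biological coefficient of variation 0.297). The MLL-ENL (x2) GMP were fitted with the 10 week GMP in 15 libraries (12580 genes, 0.272). Differences of effects were contrasts of 4 groups. Simulated data were used only for the fit of 47 libraries and its contrast of MLL-ENL against control in 10 week GMP. The fit of 15 libraries and the differences of effects were not tested in this way. CPM levels use 1 TMM scale over the 84 libraries; transgene, Xist and Ddx3y levels are CPM of mouse counts without TMM. Totals of 7.62 to 15.61 M counts set the precision, the intervals of log2 fold changes come from the fit's SE and include the spread between libraries, and the interval of the Sva ratio and the floors (3 counts over a group) cover counting error only.

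The comparison, the 29 gene lists and the marker panels were chosen with earlier results of these data known. Genes named by rule are, per direction, up to 10 with the smallest p, called genes first, with a mean of at least 1 log2 CPM (prior count 2), no overlap between groups and no predicted gene model; Kmt2a, Mllt1, Hoxa9, Hoxa10, Meis1, Mecom and Skida1 always; 2 members of each list by p; and genes called elsewhere. Hoxa7, Hlf, Fgd5, Prg2, Mpo, Mcm3, Gm13133 and Sva were named after their values were seen. No pair of libraries within the 2 groups was a duplicate (chi-square per degree of freedom 26.1 to 148.7).

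Same-numbered libraries deviated together in GMP and pGM (r = 0.114 to 0.352) and in newborn MLL-ENL and control GMP (0.211 to 0.539). No label says what these numbers share. The main contrasts had no block on the numbers, which served as replicate blocks in alternative fits only. Alternatives were RLE scaling, no filter, DESeq2 1.42.0, the 8, 24 or pooled-control libraries, replicate blocks and leaving out each library; alternatives chosen after seeing the data were a term for sex, the fit without libraries 78 and 80, and HPC and pGM values without number 73. Figures were drawn with Python 3.11.15 and matplotlib 3.10.9.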

Additional observations from a re-analysis of the deposited data

Results flagged for a closer look

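Groups of 4 libraries were examined for 1 library far from the others in at most 174 cases, and 22 stood out. Groups with equal values in all 4 libraries could not be tested. A chance rate of about 1 in 20 holds only for normally distributed values. With reads in 1 library only, that library always stands out, as for Skida1, Vsig4, Add2, Dlk1, Ciita and Traf1. The 22 are therefore a list and do not measure an excess. In MLL-ENL GMP library 73 stood apart for Ehd3 at 6.27 CPM. Library 78 stood apart for Sva at 2.76, Itgae at 2.61, Ciita at 0.307, Thbs1 at 2.46 and Ndufv1 at 408.5 CPM, the last as the lowest of its group. Library 81 stood apart for Traf1 at 0.809 CPM. In control GMP library 76 stood apart for Kmt2a at 56.2, Vsig4 at 0.632, Dntt at 12.0, Add2 at 0.948, Dlk1 at 0.158, Bgn at 4.19 and Cpvl at 0.790 CPM. Library 80 did so for Xist at 140, Skida1 at 0.0952, Thbs1 at 18.0, Il5ra at 5.90, Ifit3 at 1.81 and, as the lowest, Cdt1 at 23.0 CPM. Library 88 stood apart for S100a9 at 64.3 and Camp at 23.2 CPM.

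In 3 genes the MLL-ENL effect differed between groups by a test of the difference itself. They were Prdm16 in 10 week against newborn GMP (2.53 on the log2 scale), Plekhh2 in 10 week GMP against 10 week HPC (-17.7, carried by single libraries and not called without the HPC and pGM libraries labelled 73) and Igf2bp3 in MLL-ENL (x2) against MLL-ENL GMP (5.31).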

How the results depend on the processing

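The 3 genes called by edgeR's quasi-likelihood test became 10 with the controls of both sets pooled and 10 by DESeq2, 2 in the 8 libraries alone (C1qtnf6 and Cd14), 4 in the 24 libraries of 10 weeks, 4 with a term for sex, and 3 to 4 when 1 library was left out, where Sdc2 joined without library 78 and Glb1l2 without library 76. C1qtnf6 was called in all of these. No paired analysis was possible for MLL-ENL against control GMP because the groups share no numbers. The replicate block left 0 genes for the differences from HPC and from pGM, and 1 for that from newborn GMP. In GMP and HPC same-numbered libraries correlated at 0.062 to 0.406, and every library matched best with its own number. For the differences, DESeq2 called 7 genes against newborn GMP, 7 against HPC, 9 against pGM and 7 for MLL-ENL (x2); against HPC, RLE scaling and no filter each gave 2 and the fit without library 73 in HPC and pGM 0; no filter gave 11 for MLL-ENL (x2). Leaving out 1 library gave 1 against newborn GMP, 0 to 2 against HPC (0 without library 73) and 1 to 2 for MLL-ENL (x2), with Ppic called without library 80 and C1qtnf6 without library 78. The transgene difference of 1.70 CPM ran from 0.849 CPM without library 78 to 2.15 CPM. Its exact permutation p was 0.029 without any 1 MLL-ENL library and 0.057 without any 1 control. The groups stayed apart in every case, and these p-values differ through the unequal group sizes. List medians ran from -0.87 to -0.14 for Hoxb genes, -0.52 to -0.001 for macrophage, -0.12 to 0.68 for erythroid and -0.33 to 0.20 for T and NK cell genes, and from -0.57 to 2.65 for eosinophil genes. In the 8 libraries alone the medians were -0.043 for fetal and 0.17 for p53 genes, and without libraries 78 and 80 immediate early genes were at -0.11. Depth limits genes at few reads. Causes of these changes were not tested.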
